A study of Mus musculus with 6 samples.

Results

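Chromatin accessibility was described at 9 mouse genes of the retinoic acid system in embryonic stem cells and in 2 kinds of expanded potential stem cells. The genes were the retinoic acid receptors Rara, Rarb and Rarg, the retinoid X receptors Rxra, Rxrb and Rxrg, and the handling genes Cyp26a1, Crabp2 and Aldh1a2. They are 9 of the 22359 protein-coding genes placed on chromosomes 1 to 19, X and Y. They were chosen by the presence of peaks in each list, by promoter and by width, with earlier results known, so those values are given below as a description with no test. A member's window ran from 20 kb before the gene to 20 kb after it in the mouse build mm9, and held all peaks that overlapped it. The 9 windows held 19 peaks of embryonic stem cells, 55 of D-EPSCs and 48 of L-EPSCs, which merged into 68 of the 65518 regions of the series.

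ATAC-seq marks DNA that a transposase can reach, and a peak is a stretch where its cuts pile up. All 6 libraries came from cells of strain 129SV, 2 technical replicates for each of 3 states, and each state has 1 peak list with positions only. The ESCs were the line J1, kept in serum medium (FBS 15%) with LIF at 1000 units/mL, CHIR99021 at 3 µM and PD0325901 at 1 µM. D-EPSCs, which the study converted from ESCs, grew in N2B27 with KSR 5%, the same LIF and CHIR99021, and dimethindene maleate and minocycline hydrochloride at 2 µM each. L-EPSCs, also converted from ESCs, grew in DMEM/F12 with KSR 20%, the same LIF, CHIR99021 and PD0325901, 0.3 µM of A-419259, 5 µM of XAV939, 4 µM of JNK inhibitor VIII and 10 µM of SB203580. LIF and CHIR99021 were therefore common to the 3 states, and medium and cell state cannot be told apart. By the study's methods, both EPSCs were kept without feeder cells for several passages before ATAC-seq. ESCs were grown on feeder cells or on gelatin, and which of the 2 applied to the ESC libraries is not given in the sources used here.

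The lists held 28965 peaks for ESC, 50225 for D-EPSC and 46601 for L-EPSC, and read depth is not known from them. With 1 list for a state there is no replicate error and no test, and a missing peak means only that none was listed. The main counts of members are therefore printed beside the same counts over all protein-coding genes, promoters or regions. Of 6 genes that mark pluripotent cells, 4 (Pou5f1, Sox2, Zfp42 and Klf4) had a peak within 1 kb of a protein-coding start in all 3 lists, against 50.4% of coding genes. All 3 states are labelled as stem cells, so this does not check which list belongs to which state. Nanog and Esrrb had start peaks in both EPSC lists only, with the closest ESC peak 1021 bp from a start of Esrrb, just past the limit, and 4259 bp from that of Nanog. Of 5 fibroblast genes that would mark feeder cells, Col1a1 had start peaks in both EPSC lists, Col1a2 in D-EPSC only, Thy1 in ESC and D-EPSC, and Col3a1 and Prrx1 in no list. The part of feeder DNA in the results was not tested.

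Retinoic acid is made from vitamin A: retinol is oxidised to retinal and retinal to retinoic acid, the last step by enzymes such as Aldh1a2. In the cytoplasm Crabp2 carries retinoic acid towards the nucleus, while Cyp26a1 oxidises it for removal. In the nucleus it binds a RAR, which sits on DNA as a pair with an RXR, often at direct repeats of a 6-base element, and exchange of corepressors for coactivators then switches nearby genes. Several genes of the system, Rarb and Cyp26a1 among them, are themselves known targets of the receptors, and retinoic acid is known to drive embryonic stem cells out of self-renewal.

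The sequences shown first are the direct repeats with a 5-base spacer that lay inside a region of the member windows, since the rule that chose the genes did not use sequence. The elements searched were AGGTCA itself, its variant AGTTCA, a further variant GGGTCA, and last the variant GGTTCA, in tandem on the same strand with 1, 2 or 5 bases between them, without mismatch and on both strands. Each run below is written 5′ to 3′ on the coding strand of its gene, from the mm9 genome, and the capitals mark the 2 elements. In the last run the repeat lies on the opposite strand, so that its elements read as reverse complements.
Rara (chr11:98821277-98821383, plus strand): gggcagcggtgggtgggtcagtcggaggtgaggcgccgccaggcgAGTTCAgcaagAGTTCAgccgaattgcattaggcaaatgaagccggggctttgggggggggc
Rarb (chr14:17407987-17408088, minus strand): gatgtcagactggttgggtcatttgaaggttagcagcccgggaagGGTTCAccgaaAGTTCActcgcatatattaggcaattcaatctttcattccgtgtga
Cyp26a1, far site (chr19:37770354-37770460, plus strand): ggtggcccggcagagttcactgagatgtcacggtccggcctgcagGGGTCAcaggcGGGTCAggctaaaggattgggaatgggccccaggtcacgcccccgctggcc
Cyp26a1, near site (chr19:37772221-37772297, plus strand): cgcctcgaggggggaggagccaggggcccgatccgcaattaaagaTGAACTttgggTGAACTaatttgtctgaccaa

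The 4 repeats differed in the lists whose peaks covered them. The Rara repeat lay 387 bases before an inner start of the gene, inside a D-EPSC and an L-EPSC peak, with no ESC peak. The Rarb repeat lay 40 bases before the inner start of that gene and inside a peak of all 3 lists. The far Cyp26a1 repeat, 1882 bases before the start, was inside a D-EPSC peak of 203 bp and an L-EPSC peak of 200 bp, and the near repeat, 15 bases before the start, was inside a D-EPSC peak alone.

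A repeat with a 5-base spacer was thus found in 4 of 68 member regions (5.88%), against 0.292% of all 65518 regions. Within 400 bp around the midpoint of each region the count was 3 of 68, against 0.279% of all regions. Counting spacers of 1, 2 and 5 together, 5 member regions held a repeat (7.35%), against 1.14% of all regions. The members are genes of the retinoic acid system, some of them known receptor targets, so the count goes with the choice of genes and carries no test. Of 33 repeats of any of the 3 spacers in the windows, 9 had a 5-base spacer and 4 of these 9 lay inside a region. The other 5 lay in the windows of Rarb, Rarg, Rxrb and Crabp2, between 2537 and 43946 bp from the nearest region. How often such repeats lie inside a region over the windows of all coding genes was not counted. The 1 remaining repeat inside a region had a 1-base spacer (AGGTCAgAGGTCA, chr17:34164825-34164837), in the Rxrb window at the start of the neighbour H2-Ke6, under a D-EPSC and an L-EPSC peak. A match is a match of letters only and says nothing of which factor was bound.

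**Figure D1:**
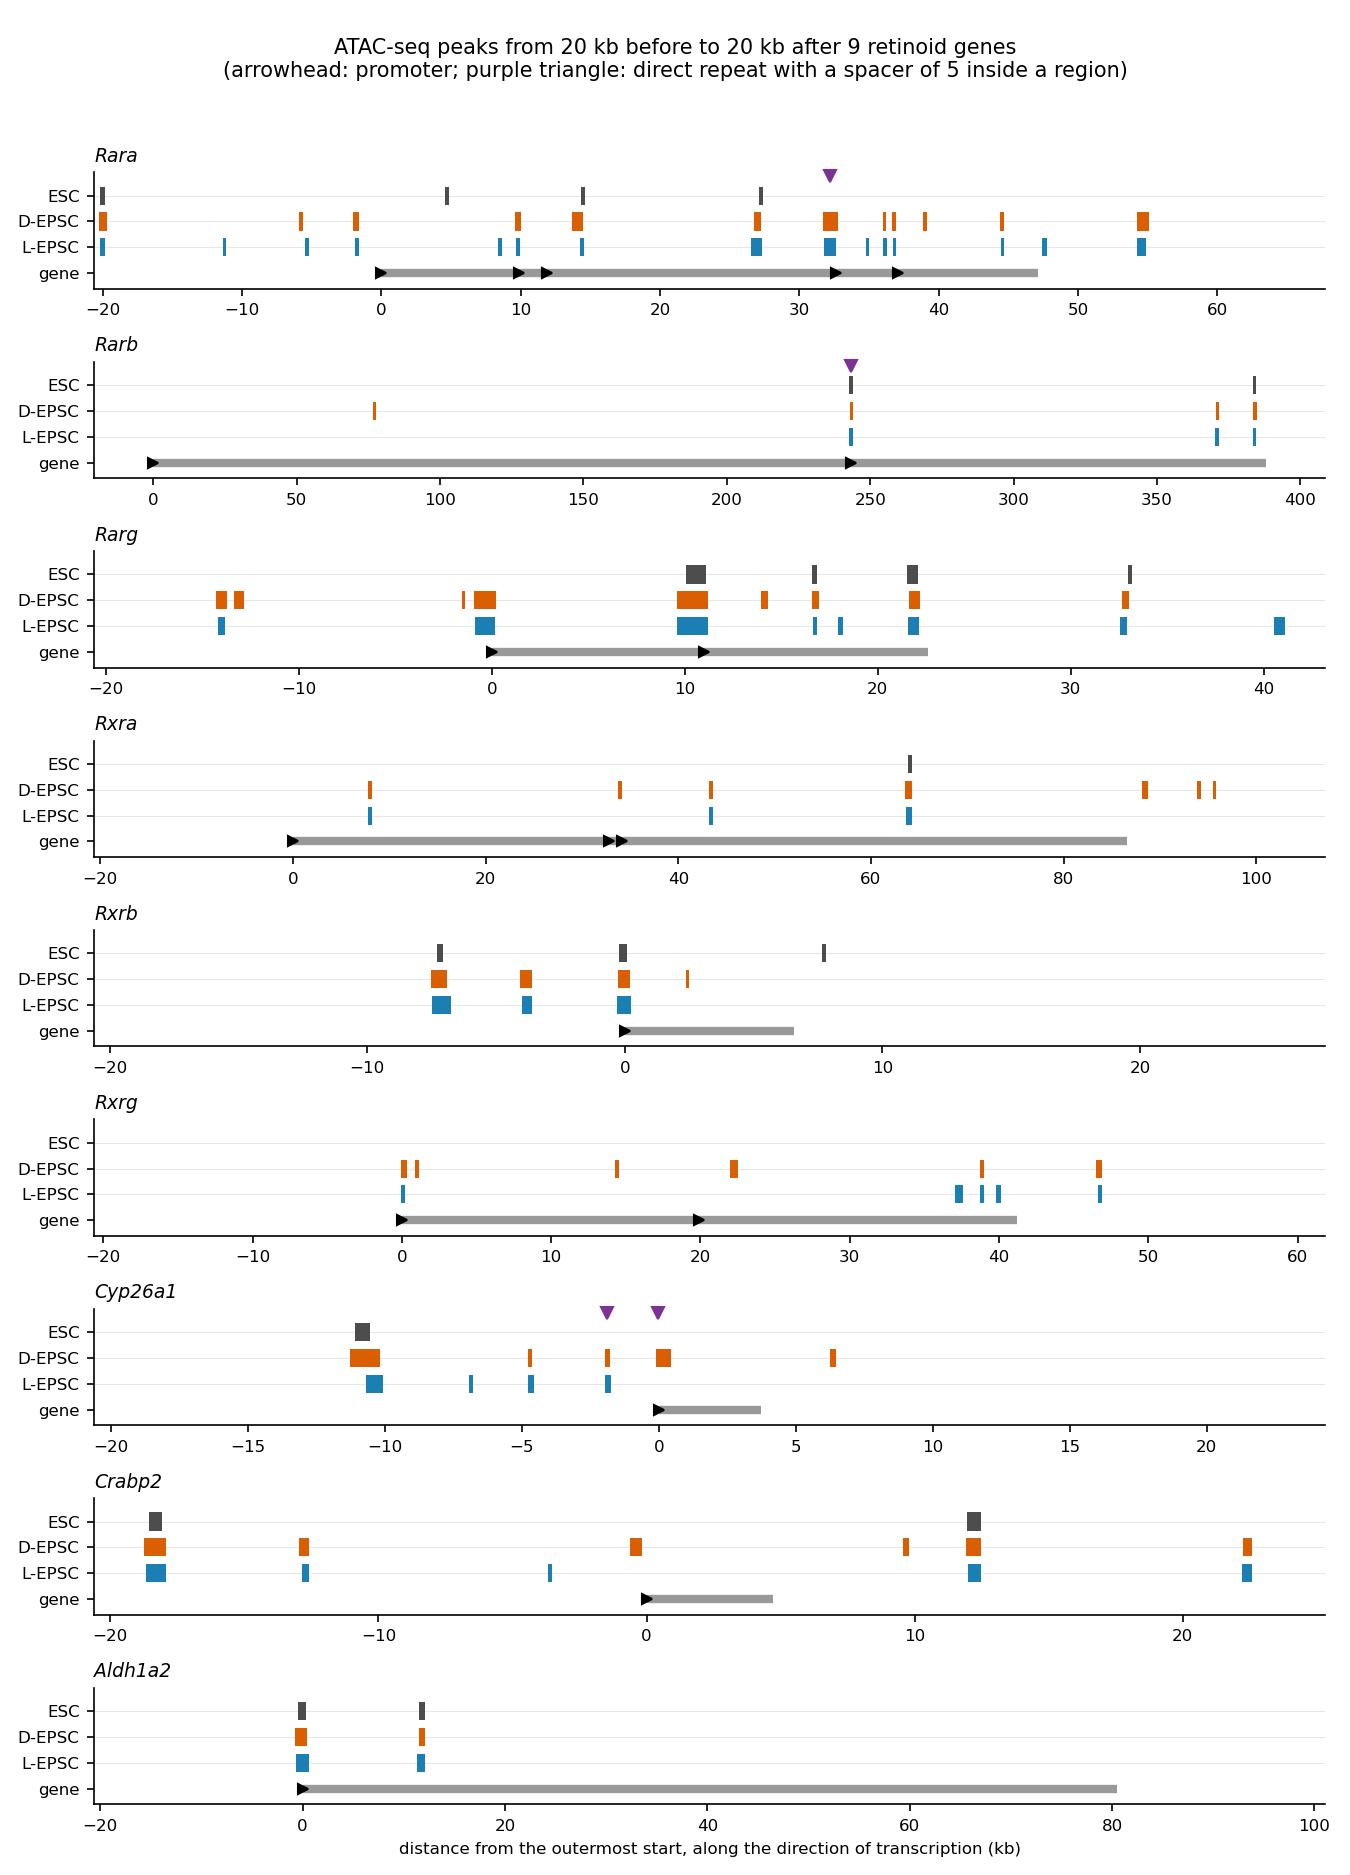
Peaks of the 3 lists in the windows of the 9 genes. The x axis is the distance from the outermost start in kb along the direction of transcription, on a scale of its own for each gene, each coloured bar is a peak (bars narrower than 0.3% of the panel are drawn at that width), the grey bar is the gene, black arrowheads are promoters and purple triangles are the 4 direct repeats. Rxrg has no bar in the ESC row, while Aldh1a2 has the same 2 places in all 3 rows.

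At the level of whole genes, all 9 members had a D-EPSC peak within 1 kb of a protein-coding start, 6 had an L-EPSC peak and 4 an ESC peak. Over all coding genes these shares were 63.4%, 60.8% and 51.5%. The 4 genes with start peaks in all 3 lists were Rarb, Rarg, Rxrb and Aldh1a2, against 50.4% of coding genes. Start peaks in both EPSC lists and not in ESC were found for Rara and Rxrg, 2 of 9 genes, against 9.16% of coding genes. Start peaks in D-EPSC alone were found for Rxra, Cyp26a1 and Crabp2, 3 of 9, against 3.33%. The call ended for Cyp26a1 with a limit of 2.5 kb, which took in an L-EPSC peak, and for Rxra with the starts of all transcripts, which took in an ESC and an L-EPSC peak. Crabp2 stayed in D-EPSC alone under both. No member had a start peak in L-EPSC or ESC alone. A gene counts here if any of its starts has a peak. Of the 9 members, 5 had 2 or more promoters as defined below (55.6%), against 5183 of 22359 coding genes.

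Starts within 1 kb of each other were joined into promoters, which gave 18 promoters for the 9 genes, numbered below along the direction of transcription. All 3 lists had a peak at 4 of them (22.2%, against 39.3% of 30010 promoters), both EPSC lists without ESC at 5 (27.8%, against 8.27%), D-EPSC alone at 4 (22.2%, against 3.59%) and no list at 5 (27.8%, against 46.4%). Of the 4 D-EPSC promoters, 2 belonged to Rxra and were reached by the same peak of 408 bp. When the D-EPSC and L-EPSC lists were reduced to their widest 28965 peaks, the length of the ESC list, 3 of the 5 promoters with peaks in both EPSC lists stayed in that class (Rara 2, Rara 4 and Rarg 1), as did 64.8% of all such promoters. The class then held 3 of 18 member promoters (16.7%, against 5.36% of all promoters). Rara 5 then had only its L-EPSC peak and Rxrg 1 only its D-EPSC peak.

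**Figure D2:**
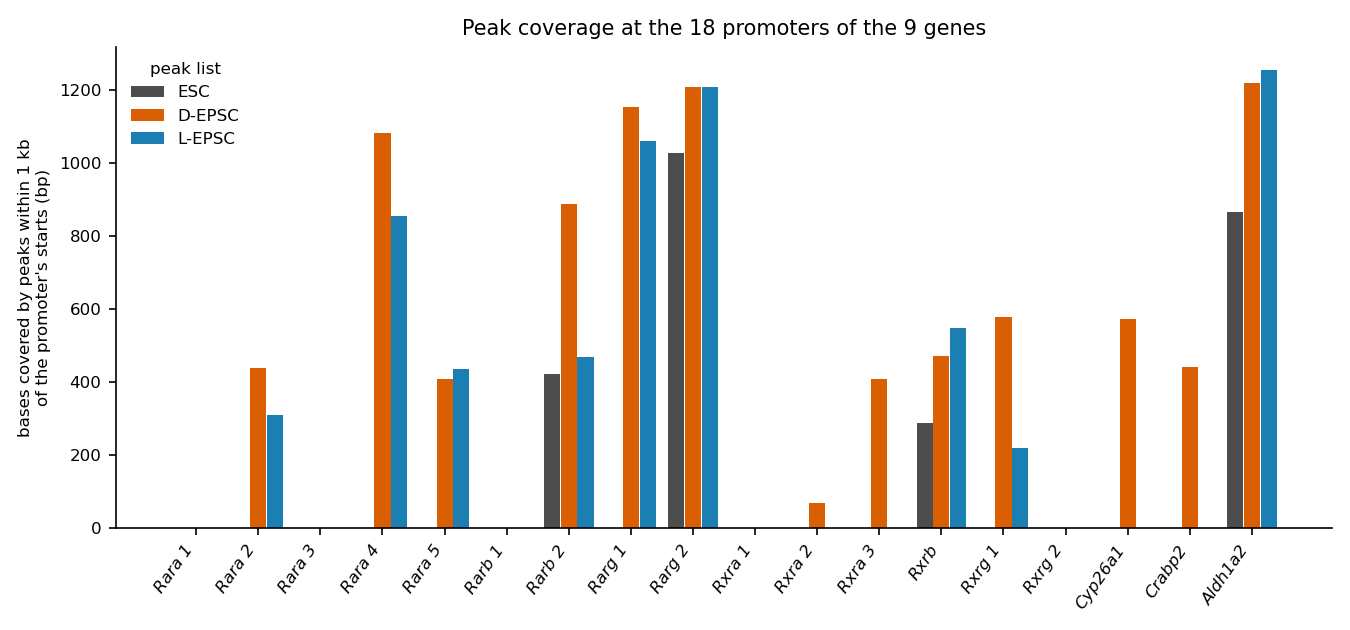
Bases covered by peaks within 1 kb of the starts at each of the 18 promoters, in bp, with 1 bar for each list and numbers for genes with more than 1 promoter. Rara and Rxrg have no grey ESC bar at any promoter, Rarg has one at promoter 2 (1027 bp) and none at promoter 1, and Cyp26a1 and Crabp2 have a D-EPSC bar alone (572 and 440 bp).

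The RAR genes encode the receptors that bind retinoic acid itself. Rara, on the plus strand of chromosome 11 (98789132 to 98836256), had 4 ESC, 12 D-EPSC and 15 L-EPSC peaks in its window, the most of any member in the 2 EPSC lists. Its 5 promoters had 0 ESC, 4 D-EPSC and 4 L-EPSC peaks within 1 kb. Promoter 2 (starts at 98799012 and 98799032) had a D-EPSC peak of 439 bp and an L-EPSC peak of 310 bp, and its nearest ESC peak was 4461 bp away. Promoter 4 (98821726), which carries the repeat shown above, had peaks of 1081 bp in D-EPSC and 855 bp in L-EPSC, and its nearest ESC peak lay 5257 bp away. Promoter 5 (98826186) had D-EPSC peaks of 226 and 247 bp and L-EPSC peaks of 285 and 203 bp, with the closest ESC peak at 9717 bp. Promoters 1 (98789132) and 3 (98801025) had no peak within 1 kb in any list, and their closest ESC peaks were at 4535 and 2468 bp. With a limit of 2.5 kb, promoter 3 had peaks of all 3 lists, so that Rara was then no longer a gene without an ESC start peak. The ESC peaks of the window thus lay away from the starts, in introns and at the start of a neighbour.

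The bases just before the Rara and Rarg starts of this class are shown because they are the EPSC-only promoters that kept their class in lists of equal length. Each run is the 150 bases before the first start, 5′ to 3′ on the coding strand in mm9, with capitals for GC boxes (GGGCGG or its reverse complement) and CCAAT boxes (CCAAT or its reverse complement).
Rara promoter 2 (chr11:98798862-98799011, plus strand): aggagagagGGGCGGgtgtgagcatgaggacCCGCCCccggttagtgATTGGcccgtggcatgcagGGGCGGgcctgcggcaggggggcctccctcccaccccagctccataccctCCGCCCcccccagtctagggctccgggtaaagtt
Rara promoter 4 (chr11:98821576-98821725, plus strand): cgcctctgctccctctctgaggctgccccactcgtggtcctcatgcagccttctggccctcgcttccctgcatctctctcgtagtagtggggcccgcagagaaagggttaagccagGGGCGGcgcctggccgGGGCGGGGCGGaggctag
Rarg promoter 1 (chr15:102087949-102088098, minus strand): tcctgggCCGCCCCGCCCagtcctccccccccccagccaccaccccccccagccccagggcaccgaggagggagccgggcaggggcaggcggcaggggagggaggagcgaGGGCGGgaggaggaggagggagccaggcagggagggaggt
GC boxes numbered 4, 3 and 3 in these runs, overlaps counted, and only Rara promoter 2 held a CCAAT box. Over 30010 promoters, 30.1% held a GC box and 24.5% a CCAAT box in the same 150 bases. G and C made up 70.7%, 68.7% and 79.3% of the runs. At the 2 Rara promoters without a peak the share was 58.7% (promoter 1) and 56.7% (promoter 3), with no GC box at either. The split did not hold over all members. Rxrg promoter 1, also with peaks in both EPSC lists only, had 58.0% G and C and no GC box, Rara promoter 5 had 64.7% and 1 box, and Rxra promoter 1, without a peak, had 52.0% and 1 box.

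Away from its starts, Rara had further regions in both EPSC lists and not in ESC. A region 1574 bp before the first start (chr11:98787080-98787558) had a D-EPSC peak of 479 bp and an L-EPSC peak of 190 bp. An intron near the end of the gene (chr11:98833591-98833786) had peaks of 196 and 144 bp. The last, 7093 bp beyond the gene (chr11:98843350-98844199, peaks of 850 and 615 bp), lay at the start of the neighbour Gjd3, a gap junction gene, and is assigned to it. In all, 18 regions lay in the Rara window: 7 in both EPSC lists only, 5 in L-EPSC only, 2 in D-EPSC only, 3 in all 3 lists and 1 in ESC only. The ESC-only region was a peak of 337 bp in an intron 4535 bp after the first start. The 3 shared regions were 2 introns and the start of Cdc6, a DNA replication gene, which with a gap of 19675 bp was the region nearest to the edge of any window from inside. The nearest from outside, 20892 bp from Crabp2, was in all 3 lists as well. At the limit for a start, the last peak counted was 932 bp away (D-EPSC, at Rxra) and the next was 1227 bp away (L-EPSC, 232 bp wide, before Rara promoter 2).

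Among coding genes with at least 2 promoters, 1.62% of 5183 had 2 or more promoters with peaks in both EPSC lists only and none in all 3 lists, as Rara did. Counting peaks at starts, 3 of 22359 coding genes had no ESC peak and 4 or more in each EPSC list. They were Rara, Abr and Ptch1, of which Ptch1, the hedgehog receptor, was named after its values were seen. The limit of 4 was Rara's own count, among the values used to choose the genes, and genes of 1 promoter were counted too. In lists of equal length Rara fell below this limit, since its D-EPSC peaks of 226 and 247 bp at promoter 5 dropped out. Abr, which regulates small GTPases, was the gene with the same 3 counts as Rara, and the bases covered at its starts differed from those of Rara by 969 bp summed over the lists.

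Rarb, on the minus strand of chromosome 14 (17263356 to 17651381), has the longest window, 428 kb, and had few peaks in it: 2 in ESC, 4 in D-EPSC and 3 in L-EPSC. Its outer promoter (17651381) had none, with the nearest ESC peak 152244 bp away, the nearest D-EPSC peak 34535 bp away and the nearest L-EPSC peak 243083 bp away. The inner promoter (17407986), with its repeat shown above, had peaks of 421 bp in ESC, 886 bp in D-EPSC and 467 bp in L-EPSC, all of which contained the start. The other shared region lay over a coding exon and intron near the end of the gene (chr14:17266927-17267684), with widths of 377, 685 and 679 bp. The region in both EPSC lists only was an intronic one (chr14:17280198-17280396) with peaks of 133 and 121 bp. Between the region at the inner promoter and the outer promoter, a D-EPSC peak of 132 bp was the only one in any list.

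Rarg, on the minus strand of chromosome 15 (102065369 to 102087948), had 4 ESC, 9 D-EPSC and 8 L-EPSC peaks, and its 2 promoters differed. The inner promoter (102076931) had a peak in all 3 lists, of 1027 bp in ESC, 1604 bp in D-EPSC and 1651 bp in L-EPSC, and this was the widest region of any member window. The upstream promoter (starts at 102087948 and 102087780) had a D-EPSC peak of 1153 bp and an L-EPSC peak of 1059 bp, with the closest ESC peak at 9902 bp. Of the 5183 genes with at least 2 promoters, 6.06% had this arrangement, with a promoter in all 3 lists and another in both EPSC lists only. The other region in both EPSC lists only lay 13702 bp upstream (chr15:102101650-102102254), with peaks of 605 and 339 bp. The remaining 3 shared regions, in an intron, at the 3′ end and beyond the gene, had ESC widths of 230 to 550 bp.

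The RXR genes encode the shared partners of RARs and of other nuclear receptors. Rxra, on the plus strand of chromosome 2 (27531960 to 27618477), had 1 ESC, 7 D-EPSC and 3 L-EPSC peaks. Its first promoter (3 starts from 27531960 to 27532782) had no peak in any list, and the nearest were 7005 bp away in D-EPSC, 7113 bp in L-EPSC and 31340 bp in ESC. The start at 27566103 had a D-EPSC peak of 408 bp (chr2:27565744-27566151) and no other, and the same peak came to 932 bp from the start at 27564812. All 3 lists shared an intronic region (chr2:27595526-27596170) with widths of 327 bp in ESC, 645 bp in D-EPSC and 601 bp in L-EPSC. Both EPSC lists and not ESC had intronic regions at chr2:27539787-27540209 (423 and 199 bp) and chr2:27575285-27575453 (169 and 118 bp). The other 3 D-EPSC peaks, of 117 to 590 bp, lay beyond the gene.

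Rxrb, on the plus strand of chromosome 17 (34168757 to 34175338), lies in a dense stretch of genes and had 3 ESC, 4 D-EPSC and 3 L-EPSC peaks. Its promoter had a peak of 287 bp in ESC, 471 bp in D-EPSC and 547 bp in L-EPSC, and this region also held the start of Slc39a7, a zinc transporter, so that the signal of the 2 genes cannot be told apart. Most of the rest of the window belonged to neighbours. The start of Ring1, a Polycomb protein, had a peak in all 3 lists (261, 607 and 744 bp), that of H2-Ke6 in both EPSC lists (490 and 382 bp, chr17:34164678-34165167), and that of Col11a2 an ESC peak of 178 bp alone. Inside Rxrb away from its start there was a D-EPSC peak of 118 bp and no other.

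Rxrg, on the plus strand of chromosome 1 (169528515 to 169569754), was the only member with no ESC peak in its window, which held 6 D-EPSC and 5 L-EPSC peaks. How many of all coding windows hold no ESC peak was not counted. The nearest ESC peak was 99993 bp from promoter 1. That promoter (3 starts from 169528515 to 169528611) had D-EPSC peaks of 406 and 223 bp and an L-EPSC peak of 220 bp, and the second promoter (169548440) had none. Other regions in both EPSC lists were an intronic one (chr1:169567266-169567447, 182 and 132 bp) and one beyond the gene (chr1:169575016-169575398, 379 and 205 bp). The widest peak of the window was an L-EPSC peak of 541 bp over a coding exon (chr1:169565565-169566105). Its counts at starts, 0, 2 and 1, were shared by 131 other coding genes, of which Rfx4, Dos and Marveld1 were the most like Rxrg, with summed differences of 23, 30 and 34 bp.

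The handling genes set the supply of retinoic acid. Cyp26a1, on the plus strand of chromosome 19 (37772298 to 37776018), had 1 ESC, 5 D-EPSC and 4 L-EPSC peaks. Its start, with the near repeat, had a D-EPSC peak of 572 bp (chr19:37772189-37772760), and the nearest L-EPSC peak was 1758 bp and the nearest ESC peak 10534 bp away. The 2 regions in both EPSC lists only lay 4565 bp before the start (chr19:37767528-37767733, 129 and 189 bp) and 1758 bp before it (chr19:37770332-37770540, 203 and 200 bp), the second around the far repeat. None of these 4 peaks was among the widest 28965 of its list. The widest region of the window, 944 bp from the start of the related gene Cyp26c1 (chr19:37761015-37762250), was shared by all 3 lists with 548, 1127 and 643 bp.

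Crabp2, on the plus strand of chromosome 3 (87752588 to 87757298), had 2 ESC, 6 D-EPSC and 5 L-EPSC peaks. A D-EPSC peak of 440 bp (chr3:87751973-87752412) ended 176 bp before its start, and the nearest L-EPSC and ESC peaks were 3528 and 11952 bp away. A region 12599 bp upstream (chr3:87739608-87739989) had peaks of 381 bp in D-EPSC and 263 bp in L-EPSC. The other region in both EPSC lists only (chr3:87774808-87775191, 365 and 355 bp) lay at the start of Nes, which encodes the intermediate filament nestin of neural progenitors. The widest region (chr3:87733829-87734668) was the shared start of Isg20l2 and Rrnad1, with 490, 840 and 734 bp. A further region 7217 bp beyond Crabp2 was in all 3 lists with 518, 547 and 461 bp.

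Aldh1a2, on the plus strand of chromosome 9 (71063596 to 71144050), was the member with the same number of peaks in every list, 2 in ESC, 2 in D-EPSC and 2 in L-EPSC. Its start lay in peaks of 864, 1218 and 1254 bp in the order ESC, D-EPSC, L-EPSC. An intronic region 11293 bp after the start had widths of 589, 546 and 755 bp. It had no region that was missing from any list.

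Over the 68 regions, 17 were in all 3 lists (25.0%, against 35.9% of the 52000 regions in the windows of coding genes). Both EPSC lists without ESC held 20 (29.4%, against 18.7%), D-EPSC alone 18 (26.5%, against 21.1%), L-EPSC alone 11 (16.2%, against 15.1%) and ESC alone 2 (2.94%, against 4.44%). The 20 include the regions at the starts of the neighbours Gjd3, H2-Ke6 and Nes. By role, regions in both EPSC lists only numbered 10 of 33 for the RAR genes, 6 of 20 for the RXR genes and 4 of 15 for the handling genes. With Rara left out, 13 of 50 regions were in this class. In lists of equal length, 43 regions remained in the member windows. Both EPSC lists without ESC then held 7 of them (16.3%, against 9.43% of regions in the windows of coding genes) and D-EPSC alone 12 (27.9%, against 14.0%).

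D-EPSC had more peaks than ESC in 8 of the 9 windows (56.5% of all coding windows) and L-EPSC in 7 (52.5%). The ratio of D-EPSC to ESC peaks was 2.89 in the 9 windows, 1.71 in the windows of all coding genes and 1.73 in the whole lists. For L-EPSC to ESC the ratios were 2.53, 1.60 and 1.61. Without Rara the windows held 15 ESC, 43 D-EPSC and 33 L-EPSC peaks. Cut to equal length, the lists had 36 D-EPSC, 28 L-EPSC and 19 ESC peaks in the 9 windows, with ratios to ESC of 1.89 and 1.47. In the windows of all coding genes these ratios were 1.03 and 1.03. D-EPSC exceeded L-EPSC in 7 windows (31.0% of all coding windows), and Rara was the window in which L-EPSC had more. Of these 7, Rxra had 7 D-EPSC and 3 L-EPSC peaks, and the rest differed by less. The counts were 4 and 3 at Rarb and Rxrb, and 9 and 8 at Rarg. Rxrg and Crabp2 had 6 and 5, and Cyp26a1 had 5 and 4. Windows with equal counts, such as those with no peak, are in the total behind the 31.0%. Of the 68 regions, 9 were no farther than 1 kb from where a neighbouring coding gene starts (13.2%). The same share over all coding windows was not counted.

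**Figure D3:**
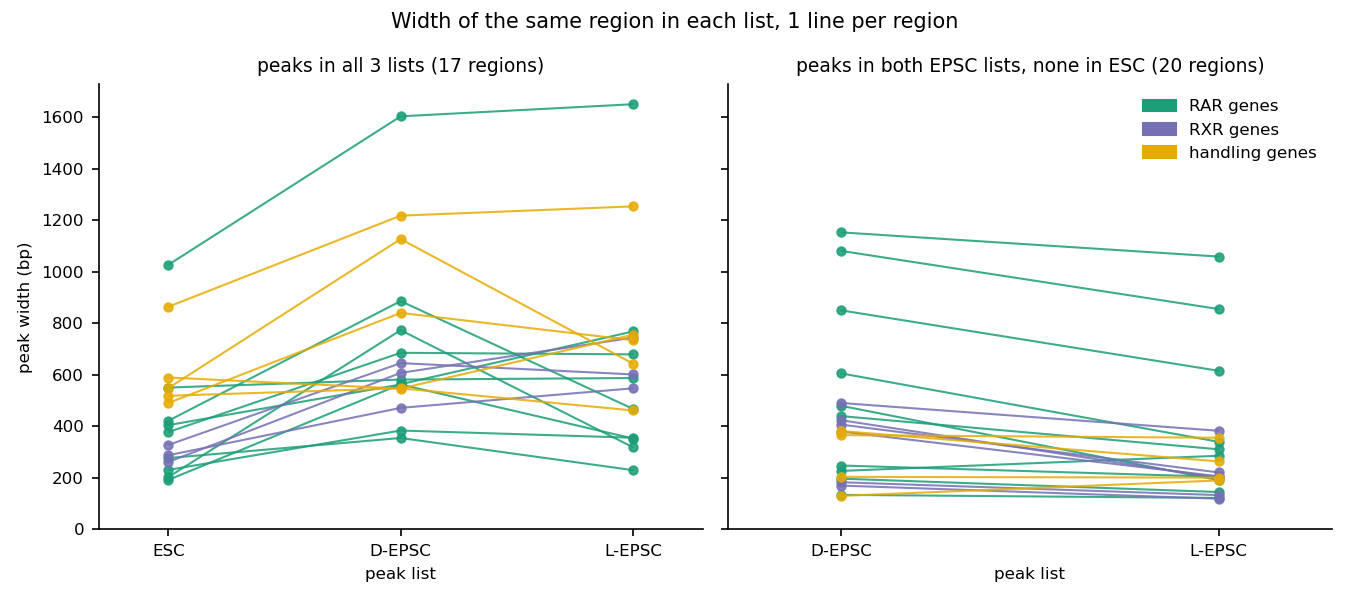
Width in bp of the peak of each list in the same merged region, with 1 line for each region, coloured by role. On the left are the 17 regions in all 3 lists, where ESC is the narrowest in 13, and on the right the 20 regions in both EPSC lists only, where D-EPSC is the wider in 18.

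Widths differed in the same direction in most regions. Peaks merged into 1 region need not all overlap each other. Beyond Rarg (chr15:102054767-102055379) the ESC and L-EPSC peaks each overlapped the D-EPSC peak but not each other. In the 17 regions of all 3 lists, the ESC peak was the narrowest in 13, against 61.7% of such regions in the windows of coding genes. Their median widths were 404 bp in ESC, 607 bp in D-EPSC and 601 bp in L-EPSC, against 436, 610 and 579 bp in all coding windows. In the 20 regions of both EPSC lists only, the D-EPSC peak was the wider in 18, against 55.7%. The exceptions were the region 770 bp before Rara promoter 5 (226 bp in D-EPSC and 285 bp in L-EPSC) and the farther region before Cyp26a1 (129 and 189 bp). Over all peaks of the windows, the medians were 377 bp for ESC, 423 bp for D-EPSC and 324 bp for L-EPSC, against 369, 364 and 358 bp in the whole lists. Width depends on depth and on peak calling as well as on the chromatin, and the part of depth was not tested.

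Other genes of the pathway were read the same way, by their peaks within 1 kb of a start. Of 31 genes, 15 had start peaks in all 3 lists (48.4%, against 50.4% of coding genes), 7 in both EPSC lists only (22.6%, against 9.16%), 3 in D-EPSC only (9.68%, against 3.33%) and 6 in no list (19.4%, against 35.1%). Of the 16 other handling genes, 7 were in all 3 lists and 5 in none. Stra6, which takes up retinol from its plasma carrier, had peaks of 556 bp in D-EPSC and 561 bp in L-EPSC, and Dhrs3, which reduces retinal to retinol, of 759 and 556 bp, with no ESC peak at either. Rbp4, the plasma carrier of retinol, had a D-EPSC peak of 1041 bp, and Cyp26c1, a relative of Cyp26a1, the D-EPSC peak of 1127 bp described above.

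Beside the shares for coding genes just given, 5 of 6 coregulators had start peaks in all 3 lists. Of 9 retinoic acid targets, 3 had start peaks in all 3 lists and 4 in both EPSC lists only. Those 4 were Cdx1, a caudal homeobox gene (336 bp in D-EPSC and 500 bp in L-EPSC), Stra8, needed for entry into meiosis (146 and 360 bp, and 453 bp), the homeobox gene Meis2 (285 and 688 bp, and 343, 199 and 777 bp) and the nuclear receptor Nr2f1 (460 and 376 bp). The nearest ESC peak was close to the limit of 1 kb at Cdx1 (1121 bp), Meis2 (1280 bp) and Cyp26c1 (1146 bp). Hoxb1, a homeobox gene of the hindbrain, had a D-EPSC peak of 517 bp alone. In lists of equal length, all 7 genes of the both-EPSC class and all 3 of the D-EPSC class kept their pattern, against 66.3% and 51.9% of the coding genes in those classes. Of all 31 genes, 29 kept their pattern. The other 2, Lrat, which esterifies retinol, and Rdh11, a retinal reductase, were in all 3 lists and lost their D-EPSC start peaks, and were named after their values were seen.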

How the data were processed

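Libraries of 6 samples, 2 technical replicates for each of 3 states, were sequenced as read pairs. Per the labels and the study's methods, the authors aligned reads to mm9 with Bowtie2 2.3.5, kept proper pairs with SAMtools 1.10, and ran MACS with its defaults for peaks. How replicates were combined is not given in the sources used here. What the authors deposited is 1 list per state with peak boundaries and no score, so depth is unknown.

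From these, peaks sharing at least 1 bp were merged into regions with Python 3.11.15, and set against GENCODE M1 protein-coding transcripts of the same build. A start peak lay within 1 kb of a start. A region's class was the set of lists with a peak in it. No group was tested against another, since each state has 1 list. Overlap counts and the repeat search were tested on simulated data.

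The members and gene lists were chosen with earlier results of these data known. All 9 members are named, other pathway genes where their pattern differed between lists (1 is counted but not reported here by name), and for each member with start peaks in both EPSC lists only the genes with equal counts and the nearest coverage. Peaks are given in full at member starts, in both EPSC lists only, and as the widest of a window. Alternatives were other window sizes, start distances, overlap rules, width limits, lists of equal length, assignment to the nearest start and fixed 400 bp for repeats.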

Additional observations from a re-analysis of the deposited data

How the results depend on the processing

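Of 47 recomputed values, 34 stayed within 1.5 times the reported count or within its interval, and 13 moved further. Peaks in the windows (19 in ESC, 55 in D-EPSC and 48 in L-EPSC) became 34, 90 and 74 with flanks of 50 kb, 12, 31 and 27 in gene bodies alone, and 10, 34 and 19 among the widest 50% of each list. In lists of equal length, D-EPSC had 36 and L-EPSC 28. In each of these settings ESC had the fewest, but outside the lists of equal length the ESC list was also the shortest. Regions in both EPSC lists only, 20 of 68 (29.4%), became 8 of 36 (22.2%) among the widest 50% and 7 of 43 (16.3%) in lists of equal length, which drop the narrowest peaks by construction. Over the windows of all coding genes the shares were 18.7%, 20.0% and 9.43%. Members with a start peak ranged from 3 to 5 for ESC and from 5 to 7 for L-EPSC, and were 9 for D-EPSC in every setting. With starts of all transcripts, Rxra gained ESC and L-EPSC peaks at a start. No paired analysis was possible because each state has 1 peak list, with no value for a replicate. No replicate could be left out for the same reason, and what depth limits is not known.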

Other observations

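Direct repeats with a 5-base spacer were also counted in all 65518 regions by class, with 95% Wilson intervals that cover counting error only. They were found in 46 of 12030 regions shared by both EPSC lists alone (0.382%, 0.287 to 0.510), 64 of 21752 in all 3 lists (0.294%, 0.230 to 0.376), 32 of 14633 in D-EPSC only (0.219%, 0.155 to 0.309), 33 of 10327 in L-EPSC only (0.320%, 0.228 to 0.448) 7 of 3354 in ESC only (0.209%, 0.101 to 0.430), 7 of 1915 in ESC and L-EPSC (0.366%, 0.177 to 0.753) and 2 of 1507 in ESC and D-EPSC (0.133%, 0.0364 to 0.483). In a fixed 400 bp around each midpoint the shares were 0.316%, 0.156%, 0.328%, 0.416%, 0.298%, 0.418% and 0.133% in the same order. The order of the classes differed between the 2 counts, and widths differ between classes.

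The Rara and Rarb repeats shared a further run of 9 bases, ATTAGGCAA, which began 10 bases after the repeat at Rara and 9 bases after it at Rarb. The run was noticed in these sequences and then counted: 135 of 65518 regions held it on either strand (0.206%). Of the 191 regions with a 5-base repeat, 4 held it. Rara and Rarb are among these 4 by construction, so this count is not a test against the share of all regions.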
